A study of Rattus norvegicus with 9 samples.

Results

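The liver expression of 10 genes of the growth hormone and insulin-like growth factor system was examined in diabetic GK rats with and without chronic unpredictable mild stress (CUMS). The genes were taken by symbol: the ligand Igf1, its plasma partner Igfals, the binding proteins Igfbp1, Igfbp2, Igfbp3 and Igfbp4, the receptors Igf1r and Ghr, and the signal proteins Socs2 and Stat5b. Every probe set that the array annotation gives to 1 of these symbols alone was used, which were 15 probe sets of the 31042 on the array and 10 of the 14217 genes with a symbol of their own. Igf1 had 3 probe sets, Igfbp3, Ghr and Igf1r had 2 each, and the other 6 genes had 1. All 15 passed the filter on low signal, which kept 18625 probe sets.

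Male Goto-Kakizaki rats, an inbred line with spontaneous diabetes, were bought at 5 weeks of age and kept for 7 weeks until their blood glucose reached at least 11 mmol/L. The stressed rats were then housed alone for 8 weeks and met 1 stressor a day, and the control rats were kept for the same time without stress. All rats, controls included, received 6 mg/kg of repaglinide, a drug that releases insulin, by gavage before the livers were taken, and the time from the last meal to death is not given in the sources used here. The study had 10 control rats and 10 stressed rats, and its text does not divide the stressed rats into major and mild depression. Arrays of 9 rats were used here, grouped by the symptom label. They were CUMS 1 to 3, labelled major depression, CUMS 4 to 6, labelled mild depression, and control 1 to 3, labelled undepression. The sample titles number the arrays within control and CUMS, and each array was taken as the liver of 1 rat. On that reading p-values measure the spread between rats, and the number of arrays limits the precision.

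Growth hormone from the pituitary binds its receptor on hepatocytes, JAK2 phosphorylates the receptor and STAT5B, and STAT5B drives transcription of Igf1, Igfals and Socs2, the last of which encodes a protein that ends the signal. Hepatocytes release IGF-I into the blood, where most of it travels in a complex with IGFBP3 and the acid-labile subunit, the product of Igfals. In rat liver, IGFBP3 is made mainly by non-parenchymal cells, whereas IGFBP1 is made by hepatocytes, repressed by insulin and induced by glucocorticoids and fasting. IGFBP2 is another hepatocyte product that is held low by insulin and growth hormone.

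Promoter windows of the members were read from RefSeq (build GRCr8, from 250 bases before to 50 bases after a start of each gene), and 9 of the 10 members matched, Socs2 being the exception. The start used was the outermost base of the annotated gene in Igfbp1, Igfbp2, Igfbp3 and Igfbp4, and lay 210 bases inside the gene in Igf1r, 226 in Stat5b, 2924 in Igf1, 6774 in Igfals and 100520 in Ghr. Igfbp1 and Igfbp3 are next neighbours on chromosome 14, on opposite strands with their starts outermost. Their windows are shown because they are neighbours whose signals went with different rats, and that of Igf1 because it is the hormone of the system. Capitals mark the core of the insulin response element, CAAAACA. The windows are chr14:86261027-86261326 on the plus strand for Igfbp1, chr14:86277895-86278194 on the minus strand for Igfbp3 and chr7:24172282-24172581 on the plus strand for Igf1, each written 5′ to 3′.
Igfbp1: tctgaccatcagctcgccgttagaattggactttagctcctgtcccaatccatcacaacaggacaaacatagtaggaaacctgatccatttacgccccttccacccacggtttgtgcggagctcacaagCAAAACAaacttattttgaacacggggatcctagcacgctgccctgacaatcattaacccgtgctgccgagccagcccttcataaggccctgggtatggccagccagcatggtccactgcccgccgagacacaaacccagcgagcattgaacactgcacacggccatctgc
Igfbp3: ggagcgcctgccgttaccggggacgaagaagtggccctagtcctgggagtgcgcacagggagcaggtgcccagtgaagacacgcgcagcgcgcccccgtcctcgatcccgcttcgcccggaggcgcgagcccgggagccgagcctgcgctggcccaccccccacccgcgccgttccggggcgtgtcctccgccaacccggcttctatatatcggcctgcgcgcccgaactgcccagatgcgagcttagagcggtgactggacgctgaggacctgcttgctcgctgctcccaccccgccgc
Igf1: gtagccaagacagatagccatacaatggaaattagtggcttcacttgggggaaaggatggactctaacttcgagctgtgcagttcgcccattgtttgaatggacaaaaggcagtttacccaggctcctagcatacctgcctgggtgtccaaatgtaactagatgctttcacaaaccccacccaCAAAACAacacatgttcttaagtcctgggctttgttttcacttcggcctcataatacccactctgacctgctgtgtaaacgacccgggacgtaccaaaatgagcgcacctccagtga
Counted from the start used for each window, the core stood at -121 to -115 in Igfbp1 and at -67 to -61 in Igf1, and no window of the other 7 matched members held it. Over both strands, 6.28% of 33469 windows of the same length held CAAAACA. The other 3 motifs searched were the STAT5 site TTCNNNGAA, in 8.87% of all windows, the FOXO site GTAAACA, in 3.78%, and the core of the glucocorticoid response element ACANNNTGT, in 6.86%. Each of these was in 0 of the 9 members' windows. A match of letters is a description of the window and not a binding site, and the lack of a match does not show that a factor has no site there. The windows differed in base composition, with 71.7% G and C in Igfbp3, 54.0% in Igfbp1, 48.3% in Igf1 and 40% in Ghr, against a median of 51.7% over all windows.

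Of 10 hepatocyte markers, 9 were measured, with a summed signal of 199024 to 260530 over the rats. None read below 1 in any rat, but neither did any kept marker of the other cell types, so this does not identify the tissue. The array of control 3 stood apart from the others, with a median correlation of 0.951 with the other arrays, against 0.965 to 0.972 for the rest. Control 3 also had the highest signal of all 9 rats in both Igfbp3 probe sets and in Socs2, so these are given with and without it.

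By its leading probe set, the one with the highest mean signal, Igf1 differed little between the rats, and Igfbp3 had its lowest mean in CUMS 1 to 3 and its highest in the controls. Igfbp2 had a higher mean in both groups of stressed livers than in control livers. Socs2, Igfbp1 and Igfbp2 all varied several-fold from rat to rat within the stressed groups. None of the 15 probe sets passed an adjusted p under 0.05 by limma in any comparison. The same count was 0 of 18625 over the whole array in CUMS 1 to 3 against control, 0.0% of the probe sets, and 0.0% also in CUMS 4 to 6 against control, all CUMS against control and CUMS 1 to 3 against CUMS 4 to 6. Before adjustment, 2 of 15 probe sets had p under 0.05 by limma in CUMS 1 to 3 against control (both of Igfbp3; 6.76% of all probe sets) and 2 of 15 in CUMS 4 to 6 against control (1 of Igfbp2 and 1 of Igfbp3; 6.28%). Of the genes, by the probe set with the highest mean signal, 5 had a higher and 5 a lower mean in CUMS 1 to 3 than in control, and 7 a higher and 3 a lower mean in CUMS 4 to 6. The median log2 fold change of the 10 genes was 0.00 in CUMS 1 to 3 and 0.08 in CUMS 4 to 6, against -0.01 and -0.02 over all probe sets tested.

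**Figure D1:**
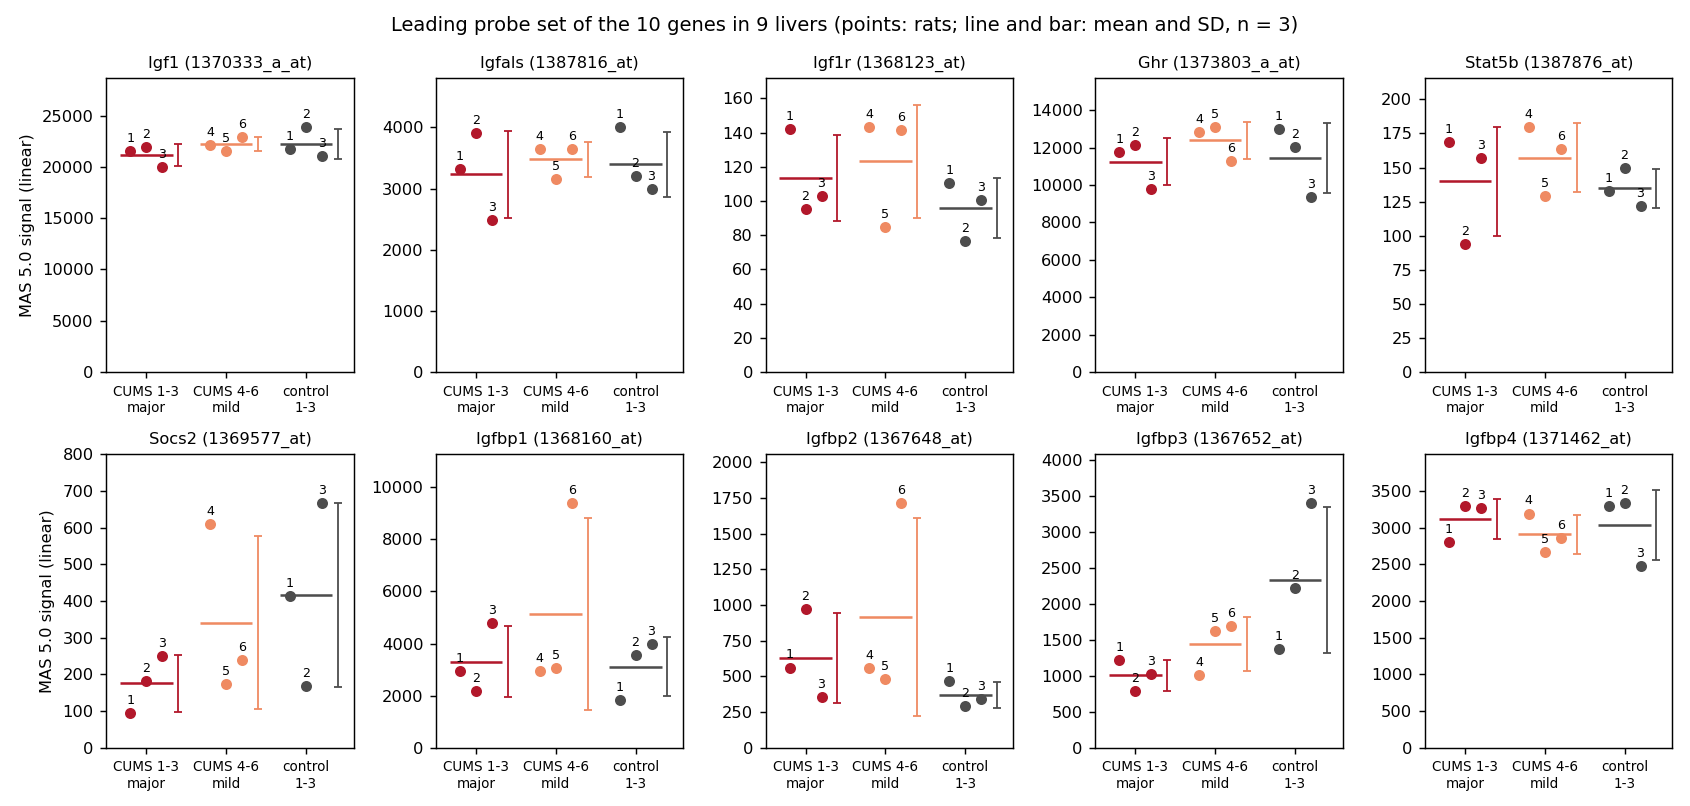
MAS 5.0 signal (linear scale from 0) of the leading probe set of each gene, with 1 point per rat numbered as in the labels, and a line and bar for mean and SD (n = 3 per group). The 9 Igf1 points lie close together, while CUMS 6 stands above the other rats in Igfbp1 and Igfbp2 and the control points of Igfbp3 lie above those of CUMS 1 to 3.

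Ghr, the growth hormone receptor, had nearly equal means in the groups. Its leading probe set read 11795, 12123 and 9813 in CUMS 1 to 3, 12853, 13089 and 11267 in CUMS 4 to 6, and 12982, 12048 and 9384 in control 1 to 3. CUMS 3, CUMS 6 and control 3 were the lowest rats of their groups, and all groups overlapped. The mean of CUMS 1 to 3 was 0.985 times that of control (95% interval 0.802 to 1.21, adjusted p = 0.987 from limma) and that of CUMS 4 to 6 1.09 times (0.886 to 1.34, adjusted p = 0.912). The small difference in CUMS 1 to 3, -0.02 on the log2 scale, was 0.03 after median centring and 0.09 in the second probe set, so it has no settled direction. The second Ghr probe set read 6798, 5773 and 5387 in CUMS 1 to 3, 5533, 7088 and 4761 in CUMS 4 to 6, and 5860, 6324 and 4764 in control 1 to 3, with overlap between all groups.

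Stat5b, the transcription factor that carries the signal to the nucleus, had a low signal, and 76.6% of the probe sets kept had a higher mean. It read 169, 94.2 and 157 in CUMS 1 to 3, 179, 129 and 163 in CUMS 4 to 6, and 133, 150 and 122 in control 1 to 3. The log2 fold change was 0.02 (standard error 0.26) in CUMS 1 to 3 and 0.22 (0.26) in CUMS 4 to 6, with adjusted p of 0.996 and 0.918 from limma.

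Socs2, the feedback inhibitor of the receptor, was the most variable of the 10 genes, and its SD over the 9 rats on the log2 scale was larger than that of 98.5% of all probe sets tested. It read 95.8, 181 and 249 in CUMS 1 to 3, 611, 174 and 239 in CUMS 4 to 6, and 415, 168 and 667 in control 1 to 3. CUMS 4, control 1 and control 3 were high and the other 6 rats lay at 249 or below, so that each pair of groups overlapped. The mean of CUMS 1 to 3 was 0.453 times that of control, as a ratio of geometric means (95% interval 0.191 to 1.07, log2 fold change -1.14, adjusted p = 0.749 from limma), and the log2 difference was -0.69 without control 3 and -1.69 without control 2. In CUMS 4 to 6 the log2 fold change was -0.29 (adjusted p = 0.958 from limma, standard error 0.56) and it was 0.16 without control 3.

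Igf1, the hormone that growth hormone releases from the liver, had a small spread between rats in its leading probe set, which was also among the brightest of the array. It read 21517, 21984 and 19985 in CUMS 1 to 3, 22164, 21572 and 22908 in CUMS 4 to 6, and 21793, 23858 and 21049 in control 1 to 3. The highest rat stood at 1.19 times the lowest, and 0.881% of the probe sets tested had a smaller SD over the 9 rats on the log2 scale, while 0.537% had a higher mean. That rank is over probe sets of all signal levels. It was not set against probe sets of like brightness, so it does not show that Igf1 was unusually steady for its signal. The mean was 0.952 times the control mean in CUMS 1 to 3 (95% interval 0.837 to 1.08, adjusted p = 0.913 from limma) and 1.0 times in CUMS 4 to 6 (0.879 to 1.14, adjusted p = 0.999).

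The other Igf1 probe sets also had overlapping groups. One read 16918, 14693 and 14774 in CUMS 1 to 3, 15870, 15985 and 16157 in CUMS 4 to 6, and 15462, 18537 and 15163 in control 1 to 3. The other read 6650, 6419 and 6369 in CUMS 1 to 3, 5611, 6548 and 5656 in CUMS 4 to 6, and 6035, 7923 and 6896 in control 1 to 3. Control 2 was the highest rat in all 3 probe sets, at 1.26 and 1.41 times the lowest rat in these, and 5.07% and 18.2% of the probe sets tested had a smaller SD. The leading probe set and the first of these had r = 0.73 over the 9 rats (exact permutation p = 0.0323, 0.0968 adjusted over 6 pairs, rho = 0.48 with exact p = 0.194), and r = 0.15 without control 2 and CUMS 3. With the other it had r = 0.19 (exact permutation p = 0.631, adjusted 0.757, rho = -0.18 with exact p = 0.644), and r = -0.87 without the same rats, so that the Igf1 probe sets did not give the rats the same order. In CUMS 4 to 6 the log2 fold changes of these were -0.03 and -0.22, and that of the leading one was -0.12 after quantile normalization, so that the value of 0.00 above carries no direction.

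Igfals encodes the acid-labile subunit, which keeps IGF-I in the circulation. It read 3314, 3906 and 2488 in CUMS 1 to 3, 3641, 3152 and 3644 in CUMS 4 to 6, and 4000.4, 3198 and 2985 in control 1 to 3. The highest rat was control 1 and the lowest CUMS 3, and the groups overlapped. The log2 fold change was -0.08 (adjusted p = 0.949 from limma, standard error 0.17) in CUMS 1 to 3 and 0.04 (adjusted p = 0.981, standard error 0.17) in CUMS 4 to 6, the second of which was 0.00 after quantile normalization.

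Igfbp3, the main carrier of IGF-I in plasma, had lower means in the stressed livers than in the control livers by both probe sets. The leading one read 1214, 784 and 1025 in CUMS 1 to 3, 1012, 1630 and 1698 in CUMS 4 to 6, and 1373, 2219 and 3403 in control 1 to 3. The second read 698, 588 and 595 in CUMS 1 to 3, 741, 1226 and 1160 in CUMS 4 to 6, and 1225, 1751 and 2439 in control 1 to 3. In both, the 3 rats of CUMS 1 to 3 lay below all 3 controls, as did 11.6% of all probe sets in either direction and 6.32% with the stressed rats lower, and CUMS 4 to 6 overlapped with the controls. Over the 9 rats the probe sets gave the same order of rats to a large extent (r = 0.96, exact permutation p = 0.000113 two-sided, 0.000678 adjusted over the 6 pairs of probe sets of the same gene, and rho = 0.90, exact p = 0.00203, adjusted 0.0122). Without control 3 and CUMS 2, the farthest from the median, r was 0.93.

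The leading Igfbp3 probe set averaged 1008 ± 216 in CUMS 1 to 3, 1447 ± 378 in CUMS 4 to 6 and 2332 ± 1019.8 in control (SD, n = 3 each). Its log2 fold change was -1.14 in CUMS 1 to 3 (adjusted p = 0.606 from limma, standard error 0.31) and -0.63 in CUMS 4 to 6 (adjusted p = 0.782, standard error 0.31). The second averaged 627 ± 62.0 in CUMS 1 to 3, 1042 ± 263 in CUMS 4 to 6 and 1805 ± 609 in control (SD, n = 3 each), with log2 fold changes of -1.47 (adjusted p = 0.282 from limma, standard error 0.25) and -0.77 (adjusted p = 0.744, standard error 0.25). Without control 3, the leading probe set differed by -0.82 in CUMS 1 to 3 and by -0.31 in CUMS 4 to 6, and without control 1 by -1.47 and -0.96. The second differed by -1.23 and -0.53 without control 3 (adjusted p = 0.475 and 0.960 from limma). For all 6 CUMS rats the differences were -0.88 and -1.12 (adjusted p = 0.509 and 0.317 from limma), where 2 of 15 probe sets had p under 0.05 before adjustment, against 7.93% of all, and 0 of 15 had groups without overlap, against 3.68%. Without control 3 these differences were -0.56 and -0.88. As a measure of RNA quality, the 3′ over 5′ ratio of the actin control probe sets was 3.73, 5.23 and 3.55 in CUMS 1 to 3, 4.96, 3.18 and 3.67 in CUMS 4 to 6, and 3.66, 3.54 and 2.51 in control 1 to 3. CUMS 2 had the highest actin ratio and the lowest Igfbp3 signal, and control 3 the lowest actin ratio and the highest Igfbp3 signal. By the same ratio of the Gapdh control probe sets, CUMS 2 was again highest, at 1.75. The lowest Gapdh ratio was that of CUMS 6, at 1.32, and control 3 had 1.34, so the match at control 3 was in actin only. The part of RNA quality in the Igfbp3 values was not tested.

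**Figure D2:**
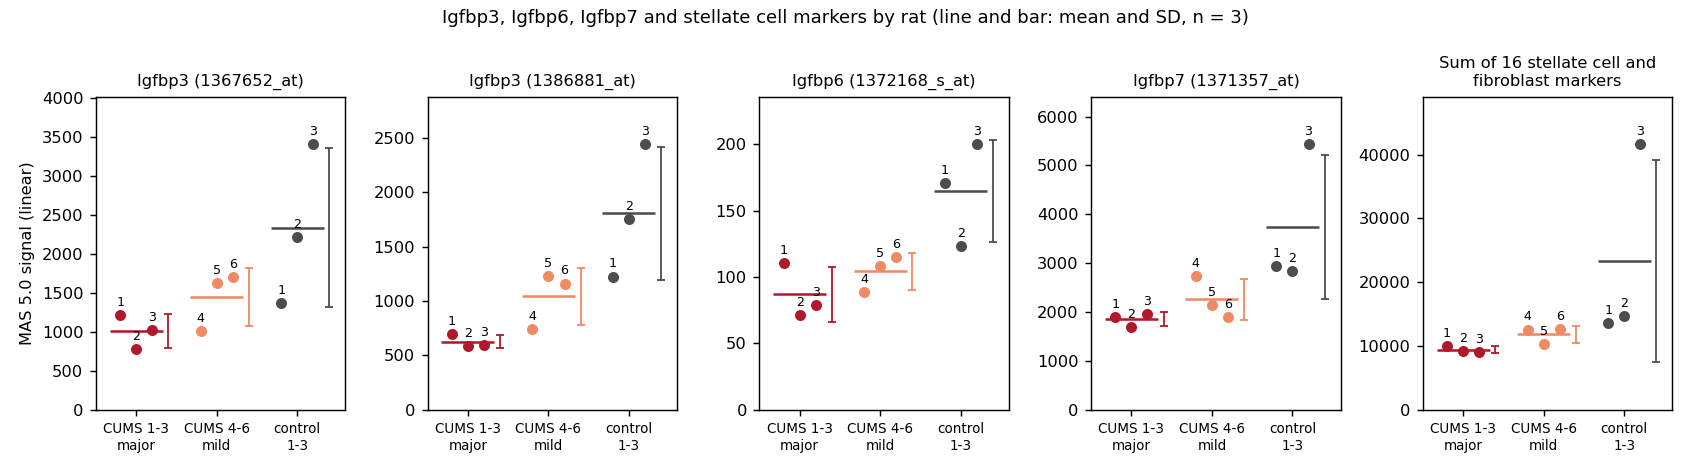
MAS 5.0 signal (linear scale from 0) of both Igfbp3 probe sets, Igfbp6, Igfbp7 and the sum of 16 marker genes of stellate cells and fibroblasts, with 1 numbered point per rat and mean and SD (n = 3). Control 3 is highest in all 5 panels, at 41585 in the marker sum against 13575 and 14686 in the other controls, and CUMS 1 to 3 lie below the controls in each.

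The summed signal of mesenchymal cell markers had the same order of groups as the Igfbp3 means. Of 18 markers of stellate cells and fibroblasts, 16 were kept, and 15 of these had a lower mean in CUMS 1 to 3 and all 16 a lower mean in CUMS 4 to 6 than in control. Their median log2 fold change was -0.79 and -0.58, and -0.56 and -0.28 without control 3, where 15 and 13 of the 16 were lower. Between the stressed groups, 13 of the 16 were lower and 3 higher in CUMS 1 to 3, so not every marker had the Igfbp3 order. Their summed signal was 8999 to 9983 in CUMS 1 to 3, 10291 to 12655 in CUMS 4 to 6 and 13575 to 41585 in control, and no marker read below 1 in any rat. Among the defining markers, Pdgfra, the PDGF receptor of these cells, which was chosen after its values were seen, read 433, 488 and 471 in CUMS 1 to 3, 687, 619 and 760.0 in CUMS 4 to 6, and 716, 904 and 1083 in control 1 to 3, which is the order of groups that Igfbp3 had. Of 9 Kupffer cell markers, 9 had a lower mean in CUMS 1 to 3 and 8 in CUMS 4 to 6 (summed signal 18743 to 27752, 19229 to 30046, and 25966 to 32244 in control), with medians of -0.46 and -0.43, and -0.42 and -0.16 without control 3. Of 11 markers of sinusoidal endothelium, 6 were lower in each, with sums of 18534 to 20313 in CUMS 1 to 3, 19650 to 21278 in CUMS 4 to 6 and 17453 to 23418 in control. Their medians were -0.04 and -0.02, and without control 3 they were 0.12 and 0.18, with 3 and 2 markers lower. In whole liver, fewer cells of a type and less RNA per cell cannot be told apart, and the part of these cells in the Igfbp3 values was not tested.

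Igfbp7, a low-affinity binding protein that is secreted by mesenchymal and endothelial cells, had the smallest p among the 12 other members of the IGF system kept. It read 1902, 1702 and 1968 in CUMS 1 to 3, 2727, 2145 and 1896 in CUMS 4 to 6, and 2934, 2840 and 5430 in control 1 to 3, so that all 6 stressed rats lay below all controls. Its log2 fold change was -0.94 in CUMS 1 to 3 and -0.68 in CUMS 4 to 6 (adjusted p = 0.562 and 0.744 from limma, standard error 0.23), and -0.64 and -0.37 without control 3. Igfbp6, which prefers IGF-II and was chosen after its values were seen, read 111, 71.4 and 78.7 in CUMS 1 to 3, 88.8, 109 and 115 in CUMS 4 to 6, and 171, 123 and 200 in control 1 to 3. It too had no overlap, with log2 fold changes of -0.92 and -0.64 (adjusted p = 0.665 and 0.778 from limma, standard error 0.28), and -0.77 and -0.49 without control 3. Of the 12 other members kept, 3 had no overlap of all CUMS with control, against 3.68% of all probe sets. Igfbp7 and Igfbp6 were named for their values, so their separation follows in part from the choice.

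Igfbp1, the insulin-repressed binding protein of hepatocytes, did not have the order of groups that Igfbp3 had. It read 2934, 2160 and 4802 in CUMS 1 to 3, 2928, 3057 and 9390 in CUMS 4 to 6, and 1817, 3560 and 3966 in control 1 to 3. CUMS 6 stood at 5.17 times the lowest rat, control 1, and all groups overlapped. The log2 fold change was 0.08 (adjusted p = 0.985 from limma, standard error 0.46) in CUMS 1 to 3, and -0.27 without control 1. It was 0.57 (adjusted p = 0.860, standard error 0.46) in CUMS 4 to 6, and 0.02 without CUMS 6.

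Igfbp2, the other binding protein that insulin holds low in liver, had its highest signal in the same rat. It read 562, 969 and 356 in CUMS 1 to 3, 555, 479 and 1714 in CUMS 4 to 6, and 470.2, 291 and 343 in control 1 to 3. CUMS 4, CUMS 5 and CUMS 6 all lay above the highest control, CUMS 5 by a small margin, while CUMS 3 lay among the controls. Of the 15 probe sets this 1 had no overlap in CUMS 4 to 6 against control, as did 11.6% of all probe sets and 5.34% with the stressed rats higher. The log2 fold change was 1.09 in CUMS 4 to 6 (adjusted p = 0.778 from limma, 95% interval of the fold 1.04 to 4.36) and 0.68 in CUMS 1 to 3 (0.785 to 3.28, adjusted p = 0.821). Without CUMS 6 the first was 0.52, and without CUMS 2 the second was 0.31. Over all 6 CUMS rats it was 0.89 (adjusted p = 0.628 from limma, standard error 0.40).

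**Figure D3:**
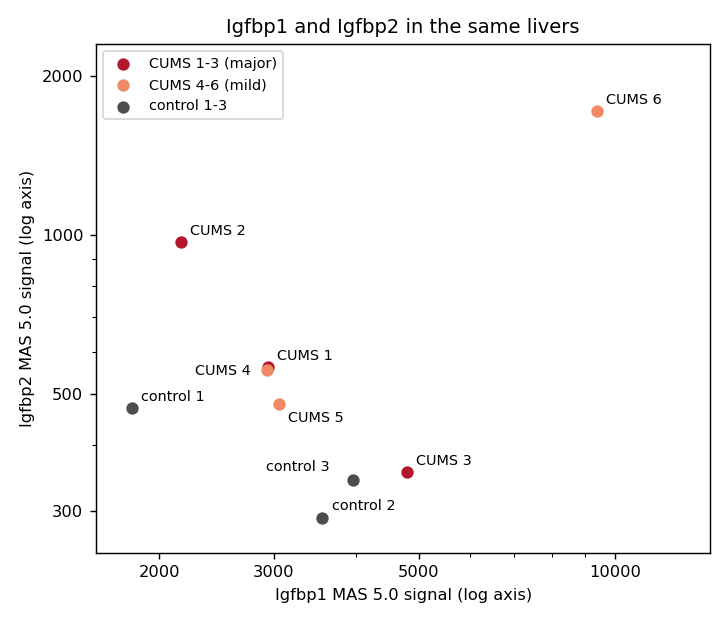
Igfbp2 against Igfbp1 signal (both axes logarithmic), with 1 labelled point per rat. CUMS 6 lies at the top right, at 9390 and 1714, above the other 8 rats on both axes, of which CUMS 2 has the highest Igfbp2 signal, 969, and CUMS 3 the highest Igfbp1 signal, 4802.

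Igfbp4, a binding protein that withholds IGF from its receptor, varied little. It read 2806, 3291 and 3263 in CUMS 1 to 3, 3191, 2670 and 2857 in CUMS 4 to 6, and 3289, 3333 and 2477 in control 1 to 3. Its fold against control was 1.04 (95% interval 0.841 to 1.27, adjusted p = 0.966 from limma) in CUMS 1 to 3 and 0.964 (0.783 to 1.19, adjusted p = 0.974) in CUMS 4 to 6, and the second changed sign after median centring, to 0.00 on the log2 scale.

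Igf1r, the IGF-I receptor, is scarce on hepatocytes and had low signals. Its leading probe set read 142, 95.6 and 103 in CUMS 1 to 3, 143, 85.0 and 141 in CUMS 4 to 6, and 111, 76.5 and 101 in control 1 to 3. The second read 65.3, 67.3 and 103 in CUMS 1 to 3, 99.2, 118 and 97.5 in CUMS 4 to 6, and 81.3, 77.0 and 108 in control 1 to 3. These probe sets did not order the rats alike (r = -0.09 over the 9 rats, exact permutation p = 0.807, 0.807 adjusted over 6 pairs, rho = -0.17, exact p = 0.678, and r = 0.14 without the 2 farthest rats), and their log2 fold changes in CUMS 1 to 3 had opposite signs, 0.24 and -0.19 (adjusted p = 0.916 and 0.935 from limma). In CUMS 4 to 6 they were 0.34 and 0.25 (adjusted p = 0.878 and 0.916 from limma).

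**Figure D4:**
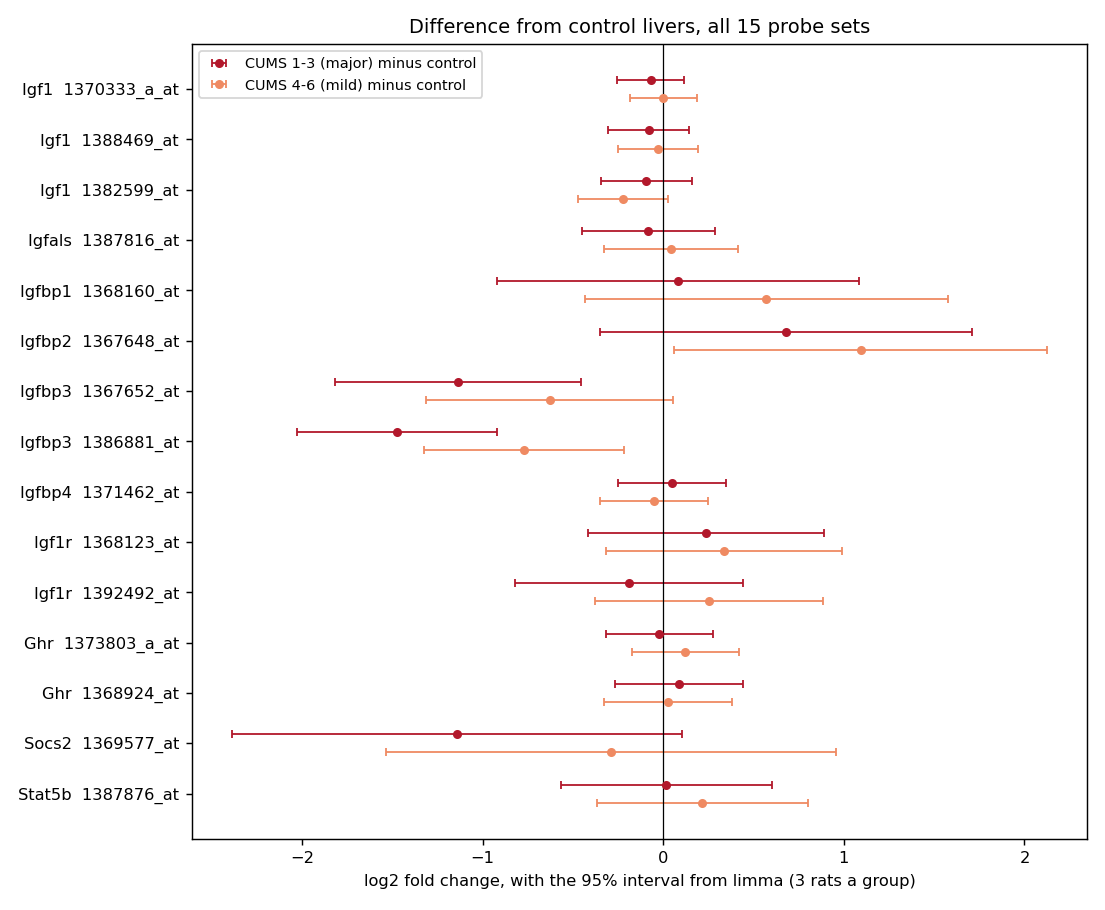
Log2 fold change of CUMS 1 to 3 (dark) and of CUMS 4 to 6 (light) against control for the 15 probe sets, with the 95% interval from limma (3 rats per group) and a vertical line at 0. The intervals of Igf1 are the narrowest and those of Socs2 the widest, and those that leave out 0 are both Igfbp3 intervals of CUMS 1 to 3 and, in CUMS 4 to 6, the second Igfbp3 and the Igfbp2 interval, before any adjustment for the number of probe sets.

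The direct comparison of the stressed groups asked whether the label of major or mild depression goes with these genes. Of the 10 genes, 1 had a higher mean in CUMS 1 to 3 than in CUMS 4 to 6 and 9 a lower one, with a median log2 fold change of -0.17 against 0.01 over all probe sets. By all 15 probe sets, 3 were higher and 12 lower. The second Ghr probe set (0.06) and 1 of the other Igf1 probe sets (0.13) had the opposite sign to their leading ones. Under the alternatives, the leading probe sets of Igf1, Igfals, Igfbp1, Igfbp2, Igf1r and Stat5b changed sign. The count therefore has no settled direction. Only the second Igfbp3 probe set had p under 0.05 before adjustment, 1 of 15 against 2.85% of all, and 1 of 15 had no overlap, against 9.11% of all. Its log2 fold change was -0.70 (adjusted p = 1.0 from limma, standard error 0.25), and that of the leading Igfbp3 probe set was -0.51 (adjusted p = 1.0, standard error 0.31).

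The relations between receptor, ligand and carrier were examined over the 9 rats for 8 pairs of genes on log2 signals. None passed after adjustment, with adjusted p from 0.664 to 0.963 by exact permutation (two-sided). Igf1 and Ghr had r = 0.51 (exact permutation p = 0.166, adjusted 0.664, rho = 0.35 with exact p = 0.359), and r = 0.33 without control 2 and CUMS 3, the farthest from the median of Igf1. Igf1 and Igfals had r = 0.56 (exact permutation p = 0.114, adjusted 0.664, rho = 0.57 with exact p = 0.121), and r = 0.62 without the same rats. With the group means removed these were 0.49 and 0.53. Both depended on the scaling of the arrays. Median centring gave 0.87 and 0.83 (adjusted exact permutation p = 0.0275 for each), and quantile normalization -0.40 and -0.29. Centring takes the same offset from both genes of a pair on each array. The leading Igf1 probe set had an SD of only 0.072 over the 9 rats on the log2 scale, so a shared offset can raise r by itself. The p after centring therefore cannot decide whether Igf1 goes with Ghr or Igfals.

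Igfbp1 and Igfbp2 had r = 0.35 (exact permutation p = 0.337, adjusted 0.759) and rho = -0.15 (exact permutation p = 0.708, adjusted 0.843). This rested on CUMS 6, since r was -0.66 without it (exact permutation p = 0.0722, adjusted 0.420) and -0.88 without CUMS 6 and control 1, the farthest from the median of Igfbp1. Igfals and Igfbp3, partners in the plasma complex, had r = -0.26 (exact permutation p = 0.490, adjusted 0.759, rho = -0.33 with exact p = 0.385), and r = -0.84 without CUMS 3 and control 1. The other 4 pairs, Igf1 with Socs2, Ghr with Socs2, Ghr with Stat5b and Igf1 with Igfbp3, had r of -0.17, -0.24, 0.02 and 0.20 (exact permutation p of 0.664, 0.539, 0.963 and 0.604).

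The genes whose signals followed a member most closely over the 9 rats were searched among 10402 other genes, as a description with no test. Ghr was followed most closely by Hsd11b1, which regenerates active glucocorticoid in liver (r = 0.99), by Akr1c13, an aldo-keto reductase (r = 0.98), and by Cyp2c11, the male-specific cytochrome P450 that pulsatile growth hormone maintains in rats (r = 0.98). Cyp2c11 read 21445, 22584 and 14947 in CUMS 1 to 3, 25837, 25411 and 19681 in CUMS 4 to 6, and 25364, 25310.1 and 12948 in control 1 to 3. CUMS 3 and control 3 were lowest in the leading Ghr probe set and in Cyp2c11, and these rats also had the lowest summed signal of 9 hepatocyte markers, 203352 and 199024, against 237820 to 260530 in the other rats. Without these rats, r of Ghr with Hsd11b1, Akr1c13 and Cyp2c11 was 0.92, 0.96 and 0.88, and the part of hepatocyte RNA in it was not tested. The second Ghr probe set followed the leading one less closely than these genes did (r = 0.64, and 0.44 without these rats), and CUMS 6 and control 3 were lowest in it, so that the likeness is to the leading probe set.

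The leading Igf1 probe set was followed by Cpb2, which encodes a carboxypeptidase that slows fibrinolysis (r = 0.93), Tram1, part of the translocation machinery of the endoplasmic reticulum (0.92), and Idh1, the cytosolic isocitrate dehydrogenase (0.92), all closer to it than the other Igf1 probe sets were. These values were 0.86, 0.96 and 0.70 without control 2 and CUMS 3. Igfbp1 was followed by Flcn, encoding folliculin (0.96), Pum2, an RNA-binding protein (0.93), and Depp1, a target of FOXO factors (0.92), and these values were 0.80, 0.94 and 0.86 without CUMS 6 and control 1. Igfbp2 was followed by Serpind1, encoding heparin cofactor II (0.97), Glyat, a glycine acyltransferase of mitochondria (0.95), and Wfdc6a (0.94), and these values were 0.79, 0.80 and 0.67 without CUMS 6 and CUMS 2. Igfbp3 was followed by Haspin, a mitotic histone kinase (0.95), Ccdc80, an extracellular matrix protein (0.95), and Map4k3 (0.94). The Igfbp3 values of r were 0.89, 0.85 and 0.82 without control 3 and CUMS 2, below the 0.93 that its own second probe set kept.

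The rest of the pathway was read from 4 lists, and no gene of any of them passed an adjusted p under 0.05 by limma. Of 13 genes of growth hormone receptor signalling, 6 had a higher and 7 a lower mean in CUMS 1 to 3, and 4 a higher and 9 a lower mean in CUMS 4 to 6, with median log2 fold changes of -0.22 and -0.20 (0.03 and -0.06 without control 3). Jak2, the kinase bound to the receptor, read 240.1, 264 and 270.0 in CUMS 1 to 3, 269, 234 and 232 in CUMS 4 to 6, and 355, 309 and 371 in control 1 to 3. The log2 fold changes were -0.42 and -0.49 (adjusted p = 0.732 and 0.744 from limma, standard error 0.16), and -0.36 and -0.44 without control 3. All 6 stressed rats were below all controls. Such a lack of overlap of all CUMS with control was seen in 1 of the 13 genes and in 3.68% of all probe sets. Jak2 was named for its small p, so its separation follows in part from the choice. Ptpn6, the phosphatase SHP-1, most abundant in blood cells, read 505, 483 and 499 in CUMS 1 to 3, 618, 600.1 and 574 in CUMS 4 to 6, and 601, 613 and 813 in control 1 to 3, with a log2 fold change of -0.43 in CUMS 1 to 3 (adjusted p = 0.722 from limma, standard error 0.14; -0.29 without control 3) and no overlap there. In CUMS 1 to 3 against control, 2 of the 13 genes had no overlap, against 11.6% of all probe sets.

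Of 13 genes of liver that depend on growth hormone, 4 had a higher and 9 a lower mean in CUMS 1 to 3, and 7 a higher and 6 a lower mean in CUMS 4 to 6 (medians -0.07 and 0.14, or -0.25 and -0.03 without control 3). The smallest p in CUMS 1 to 3 was that of Onecut1, a hepatocyte transcription factor also called HNF6, which read 531, 1068 and 1365 in CUMS 1 to 3 and 2318, 1073 and 1495 in control 1 to 3 (log2 fold change -0.76, adjusted p = 0.745 from limma, -0.36 without CUMS 1 and -0.46 without control 1). In CUMS 4 to 6 it was that of A1bg, a plasma glycoprotein that is sex-dependent in rat liver, which read 65.6, 55.5 and 62.8 in CUMS 4 to 6 and 98.5, 91.6 and 116 in control 1 to 3 (log2 fold change -0.73, adjusted p = 0.782 from limma).

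Of the 12 other members of the IGF system, 3 had a higher and 9 a lower mean in CUMS 1 to 3, and 7 a higher and 5 a lower mean in CUMS 4 to 6, with medians of -0.10 and 0.03. Without control 3 these counts were 6 and 6 in CUMS 1 to 3 and 8 and 4 in CUMS 4 to 6, with medians of -0.01 and 0.07. Of 10 genes under the control of insulin and glucocorticoid, the hormones that also act on Igfbp1, 5 were higher and 5 lower in CUMS 1 to 3 and 4 higher and 6 lower in CUMS 4 to 6, with medians of 0.01 and -0.11. Without control 3 these were 3 higher and 7 lower in CUMS 1 to 3 and 4 higher and 6 lower in CUMS 4 to 6, with medians of -0.07 and -0.27. Foxo1, the transcription factor that insulin keeps out of the nucleus, read 184, 141 and 284 in CUMS 1 to 3, 43.3, 152 and 176 in CUMS 4 to 6, and 71.8, 106 and 123 in control 1 to 3. CUMS 1 to 3 lay above all controls, with a log2 fold change of 0.99 (adjusted p = 0.749 from limma, standard error 0.49). Foxo1 was the 1 gene of the 10 without overlap there, against 11.6% of all probe sets. Its relative Foxo3 had the smallest p of this list in CUMS 4 to 6, with 1809, 1406 and 1391 in CUMS 4 to 6 and 1639, 2056 and 1714 in control 1 to 3 (log2 fold change -0.24, adjusted p = 0.826 from limma, and -0.14 without control 2).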

How the data were processed

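Liver RNA was hybridised to 9 Affymetrix rat arrays, taken as 1 per rat. The authors used TRIzol for extraction and a 3′ IVT kit for biotin labelling, and normalized the scans by MAS 5.0. The deposited values are signal intensities on a linear scale, with a trimmed mean of 500.2 on each array and a median of 108 to 134. The probe set annotation came from GEO's platform table, which gave 1 symbol to 20826 probe sets, several to 436 and none to 9780. No genome build is given for the probe sets in the sources used here, and RefSeq (GRCr8) was used for promoters and neighbours.

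Signals below 1 (586 in all) were set to 1 and put on the log2 scale, and the 40% of probe sets with the lowest mean over the arrays were dropped together with 57 control probe sets, so that those kept had means above 6.07. Groups came from the symptom label. The 3 groups were fitted together in R 4.3.3 with limma 3.58.1 (trend, 6 residual degrees of freedom), with Benjamini-Hochberg adjustment over all probe sets kept and calls at an adjusted p under 0.05. Folds are ratios of geometric means. The leading probe set of a gene is that with the highest mean log2 signal. Correlations used exact permutation (SciPy 1.17.1). The script was tested on simulated data. The methods' test, ANOVA on 2 groups with equal variances, was an alternative, also with the thresholds of the study (p under 0.05 before adjustment, fold of at least 1.5 or at most 0.5).

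Named genes are the members, the gene with the smallest p of each pathway list in CUMS 1 to 3 and in CUMS 4 to 6 against control, and the 3 genes most like Igf1, Ghr, Igfbp1, Igfbp2 and Igfbp3. Igfbp6, Pdgfra, Spp1, Cish and Bcl6 fall outside this rule and were chosen after their values were seen. The members and lists were chosen with earlier results of these data known. A cell type's summed signal adds the leading probe sets of its markers. Alternatives were quantile normalization, median centring, log2 of signal plus 50, other signal filters, a fit of the groups compared only, no variance trend, the replicate number as a block, other probe sets, and leaving out each rat in turn.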

Additional observations from a re-analysis of the deposited data

How the results depend on the processing

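None of the 15 probe sets passed an adjusted p under 0.05 under any alternative. The lowest adjusted p was 0.179, for the second Igfbp3 probe set in all CUMS against control without control 1. With 3 rats per group this does not show that the genes did not differ. Igfbp3 was lower and Igfbp2 higher than in control under each alternative run in both CUMS groups. Calls over the whole array were 0 in each comparison. Median centring gave 1 in CUMS 4 to 6 and 1 in all CUMS against control. The methods' test gave 1 in CUMS 1 to 3 against control after adjustment. Before adjustment it gave 977 in CUMS 1 to 3, 993 in CUMS 4 to 6 and 1435 in all CUMS against control and 760 between the stressed groups, and with the fold thresholds 608, 640, 758 and 509 without and 147, 120, 184 and 81 with the signal filter. Calls were 0 without any 1 rat. The cause of these differences was not tested.

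The replicate number did not pair the rats, with correlations of deviations of 0.003, -0.05 and 0.14 for numbers 1 to 3, and 2 of 6 rats correlated best with their own number. With the replicate block, CUMS 1 to 3 against control gave 0 calls, and Igfbp3 had an adjusted p of 0.440.

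Some log2 fold changes changed sign. In CUMS 1 to 3 the log2 fold change of Igf1r was -0.19 by its other probe set, and that of Ghr 0.027 after median centring and 0.087 by its other probe set. In CUMS 4 to 6 quantile normalization gave -0.12 for Igf1, -0.0011 for Igfals and -0.00028 for Ghr, median centring gave 0.0049 for Igfbp4, and the other Igf1 probe sets gave -0.22 and -0.028. In all CUMS median centring gave 0.018 for Igf1, 0.034 for Igfals and 0.052 for Igfbp4, and quantile normalization gave -0.032 for Ghr. Without 1 rat at a time, the log2 fold change in CUMS 1 to 3 ran from -0.23 to 0.095 for Igfals, -0.27 to 0.35 for Igfbp1, -0.090 to 0.12 for Igfbp4, -0.16 to 0.074 for Ghr, -0.14 to 0.28 for Stat5b and, chosen after the data were seen, -0.17 to 0.0070 for Foxo3. In CUMS 4 to 6 it ran from -0.038 to 0.052 for Igf1, -0.043 to 0.17 for Igfals, -0.19 to 0.022 for Igfbp4, -0.015 to 0.22 for Ghr, -0.84 to 0.16 for Socs2 and -0.27 to 0.74 for Foxo1. In all CUMS it ran from -0.073 to 0.017 for Igf1, -0.11 to 0.11 for Igfals, -0.023 to 0.54 for Igfbp1, -0.14 to 0.073 for Igfbp4 and -0.087 to 0.15 for Ghr.

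Correlations moved more, with alternatives chosen after the data were seen. After quantile normalization r was -0.40 for Igf1 with Ghr, -0.29 for Igf1 with Igfals, 0.24 for Igf1 with Socs2 and -0.0018 for Ghr with Stat5b. Median centring gave 0.87, 0.83 and, for Igf1 with Igfbp3, -0.27. Without 1 rat at a time r ran from -0.48 to 0.22 for Ghr with Socs2, -0.24 to 0.18 for Ghr with Stat5b, -0.046 to 0.60 for Igf1 with Igfbp3 and -0.66 to 0.58 for Igfbp1 with Igfbp2.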

Other observations

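Cish, a second feedback inhibitor of the growth hormone receptor, and Bcl6, a repressor of STAT5 targets that is low when growth hormone signals, were set beside Socs2 after their values were seen and without a test. Cish read 251, 87.7 and 87.3 in CUMS 1 to 3, 887, 147 and 64.5 in CUMS 4 to 6, and 248, 38 and 570.5 in control 1 to 3. Bcl6 read 2647, 2675 and 3452 in CUMS 1 to 3, 855, 1772 and 2763 in CUMS 4 to 6, and 403, 3447 and 1666 in control 1 to 3. The 3 rats with the highest Socs2, control 3, CUMS 4 and control 1, had the 3 lowest Bcl6 signals, and together with CUMS 1 they were the 4 rats with the highest Cish. These 3 rats come from both the stressed and the control livers. Other genes that depend on growth hormone did not set these rats apart. Igfals read 4000.4 in control 1, 3641 in CUMS 4 and 2985 in control 3, and Cyp2c11 was highest in CUMS 4 but lowest in control 3. Igf1 and Socs2 had r = -0.17 over the 9 rats (exact permutation p = 0.664). How often genes picked in this way match such an order of rats was not tested.

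Control 3 read 7740 for Spp1, which encodes osteopontin and was chosen after its values were seen, against 181 and 167 in the other controls and 124 to 206 in the 6 stressed rats. The summed signal of 3 bile duct markers, Spp1 among them, was 8998 in control 3 and at most 1114 in the other rats.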
